A study of Homo sapiens with 12 samples.

Results

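The genes for 10 epithelial integrin subunits, ITGA2, ITGA3, ITGA5, ITGA6, ITGAV, ITGB1, ITGB4, ITGB5, ITGB6 and ITGB8, were followed across 6 sorted populations of gastric cancer cells. They were taken by name from 34595 genes with a value, and the list was chosen with earlier results of these data known. Integrins are cell surface receptors made of an alpha and a beta chain, which bind the extracellular matrix outside the cell and the cytoskeleton inside it. The alpha chain largely sets the ligand: with the ITGB1 chain, the ITGA2 chain binds collagen, the ITGA3 and ITGA6 chains bind laminin and the ITGA5 chain binds fibronectin. The chains of ITGA6 and ITGB4 pair in hemidesmosomes, the junctions that anchor an epithelial cell to laminin. The chain of ITGAV pairs with those of ITGB1, ITGB5, ITGB6 and ITGB8 to bind vitronectin, fibronectin or the latent form of TGF-beta.

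The lines were KATO-III, SNU-216 and SNU-601, established gastric cancer cell lines that were grown in medium with calf serum and stained with an antibody to CD133, the surface protein encoded by PROM1. From each line the brightest CD133+ cells and the dimmest CD133- cells were collected by flow cytometry, so that each line serves as its own control and the cells between these gates were not measured. RNA of each of the 6 populations was hybridized to 2 Illumina HT-12 v3 arrays, 12 in all, numbered as replicates 1 and 2. It is not given whether the 2 arrays come from separate sorts, and p-values then measure only the spread between them, which may be technical. The labels of the arrays name SNU-216 where the series' design text has SNU201, and the labels were followed.

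PROM1 was higher in the CD133+ cells of every line, with log2 differences of 1.10 in KATO-III, 2.02 in SNU-216 and 1.86 in SNU-601. The values are intensities on a linear scale after quantile normalization and subtraction of a background, so a gene without signal scatters around 0, and intensities under a floor of 32.7 were set to it before taking log2. All 5 epithelial markers (EPCAM, CDH1, KRT8, KRT18 and KRT19) lay above the floor on all 12 arrays. Of 7 fibroblast and 6 leukocyte or endothelial markers, at most 2 and 1 lay above it on both arrays of a population. LUM, COL1A1 and CD14 moved with the fractions in KATO-III. LUM read 64.4 and 91.6 in the CD133+ and 743 and 783 in the CD133- cells, and CD14 read 856 and 835 against 1202 and 1242. COL1A1 read 51.4 and 67.1 in the CD133+ cells and lay under the floor in the CD133- cells. The leukocyte antigen gene PTPRC was under the floor on all 12 arrays. The summed fibroblast markers lay between 117 and 172 in the CD133+ and between 777 and 832 in the CD133- cells of KATO-III, and the summed leukocyte and endothelial markers between 873 and 885 and between 1233 and 1254. Their part in the differences of KATO-III given here was not tested. In such sorted bulk samples, fewer cells of a type and less RNA per cell cannot be told apart.

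To show the regulatory sequence beside the values, the 250 bases before the gene start were taken from RefSeq (GRCh38.p14) for 4 members that differed between the fractions in at least 1 line. They are written in the direction of the gene, and capitals mark matches on either strand to the AP-1 site TGANTCA, the GC box GGGCGG bound by Sp1 and the E-box CAGGTG bound by ZEB and SNAI repressors.
ITGA2 (chr5:52989102-52989351, plus strand): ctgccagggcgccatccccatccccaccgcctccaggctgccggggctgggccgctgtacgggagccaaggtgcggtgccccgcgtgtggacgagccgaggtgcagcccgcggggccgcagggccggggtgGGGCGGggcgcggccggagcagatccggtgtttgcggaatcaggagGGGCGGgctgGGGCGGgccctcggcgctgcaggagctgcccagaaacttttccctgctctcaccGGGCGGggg
ITGA6 (chr2:172427086-172427335, plus strand): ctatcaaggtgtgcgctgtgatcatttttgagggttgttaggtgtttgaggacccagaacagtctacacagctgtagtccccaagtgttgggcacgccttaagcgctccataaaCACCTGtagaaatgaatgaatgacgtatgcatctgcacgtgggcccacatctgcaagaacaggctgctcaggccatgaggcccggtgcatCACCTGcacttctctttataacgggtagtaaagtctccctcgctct
ITGAV (chr2:186589806-186590055, plus strand): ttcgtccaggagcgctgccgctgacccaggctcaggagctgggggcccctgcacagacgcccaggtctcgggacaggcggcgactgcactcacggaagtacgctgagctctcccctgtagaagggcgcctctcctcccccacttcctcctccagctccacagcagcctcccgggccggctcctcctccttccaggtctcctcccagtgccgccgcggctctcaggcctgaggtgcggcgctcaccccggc
ITGB5 (chr3:124901419-124901668, minus strand): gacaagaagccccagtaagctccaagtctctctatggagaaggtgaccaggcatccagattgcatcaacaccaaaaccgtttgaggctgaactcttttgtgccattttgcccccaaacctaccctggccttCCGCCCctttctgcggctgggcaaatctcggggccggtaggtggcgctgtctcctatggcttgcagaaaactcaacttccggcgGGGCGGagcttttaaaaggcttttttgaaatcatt
These promoters differ in what they hold. The window of ITGA2 has 4 GC boxes, that of ITGB5 has 2, that of ITGA6 has 2 E-boxes and no GC box, and that of ITGAV has no match to these letters. Windows were given for 8 of the 10 members, all but ITGA3 and ITGB4. A GC box was in 5 of the 8 and in 42.6% of 35116 promoters of the same length, an E-box in 2 of the 8 and in 17.5%, and an AP-1 site in 0 of the 8 and in 6.57%. A match is a description of the letters and not of binding.

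The first question was whether CD133+ and CD133- cells of a line differ in their integrins. In KATO-III, ITGA3, ITGA2, ITGB4 and ITGB5 were lower and ITGA6 and ITGAV higher in CD133+ cells. In SNU-216, ITGA2 and ITGAV were higher and ITGB4 and ITGB5 lower. In SNU-601, ITGB4 was the one member to pass the test, and it was lower. The tests were made by limma over all genes, and a gene was called at a Benjamini-Hochberg adjusted p under 0.05. Of the 10 members all but ITGB6 exceeded the floor on 2 or more arrays, and these 9 were tested. In KATO-III 6 of the 9 were called, 2 higher and 4 lower, where 39.3% of all 20147 tested genes were called, 18.7% higher and 20.6% lower. In SNU-216 4 of the 9 were called, 2 in each direction, beside 28.6% of all genes, 14.6% higher and 14% lower. In SNU-601 1 of the 9 was called, beside 16.4% of all genes, 8.59% higher and 7.78% lower. With an offset of 100 in place of the floor ITGA3 was called there as well (limma adjusted p = 0.0416), and with centred arrays ITGB5 (0.0416), both higher. The median log2 difference of the 9 was -0.05 in KATO-III, 0.08 in SNU-216 and 0.09 in SNU-601, with a median of 0 over all genes in each line.

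**Figure D1:**
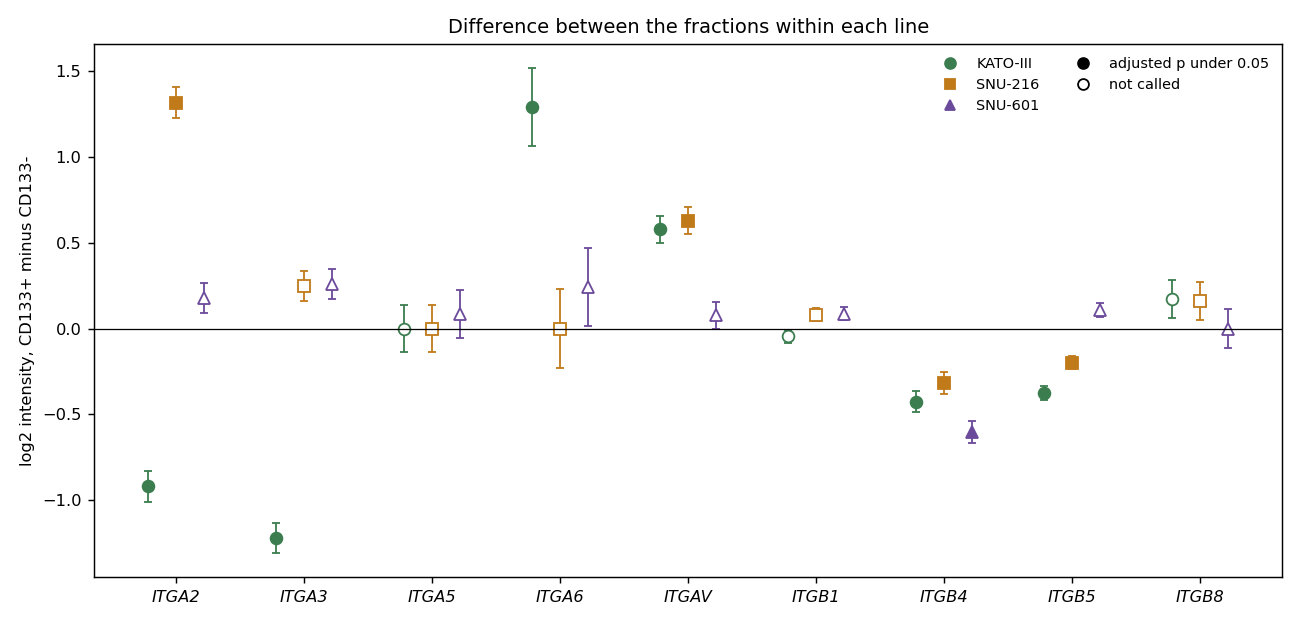
Difference in log2 intensity, CD133+ minus CD133-, of the 9 tested integrin genes (x axis) in each line (symbols), with the standard error from limma as bars; filled symbols passed an adjusted p of 0.05. Symbols at 0 for ITGA5, ITGA6 and ITGB8 are lines in which both fractions lay under the floor. ITGB4 lies below 0 in all 3 lines, and ITGA2 lies at -0.92 in KATO-III and at 1.31 in SNU-216.

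ITGA2, the collagen-binding chain, went in opposite directions in 2 lines. In KATO-III it read 867 and 818 in the CD133+ and 1537 and 1649 in the CD133- fraction, and in SNU-216 it read 3406 and 3270 in CD133+ and 1424 and 1267 in CD133- cells. The fractions do not overlap in either line, and the order is turned. In SNU-601 the arrays of the fractions overlap, with 8499 and 7617 in CD133+ and 6602 and 7670 in CD133- cells. The log2 difference was -0.92 in KATO-III (standard error 0.0895, limma adjusted p = 6.47e-05), or 1.89-fold lower. It was 1.31 in SNU-216, or 2.48-fold higher (limma adjusted p = 1.87e-05), and 0.18 in SNU-601 (95% interval -0.03 to 0.38), which did not pass. The differences were not the same in the 3 lines (adjusted p = 1.37e-05, limma's F-test of the interaction of line and fraction). Such an interaction was called for 5 of the 9 members, beside 44.4% of all genes.

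ITGA3, a laminin-binding partner of the ITGB1 chain, fell in the CD133+ cells of KATO-III. Its intensities were 1129 and 1348 there against 2709 and 3035 in CD133- cells, 2.33-fold lower, and the log2 difference of -1.22 was the largest of the members in that line after ITGA6 (standard error 0.0867, limma adjusted p = 1.18e-05). In the other lines the order of the fractions was the opposite. ITGA3 read 4280 and 4008 in CD133+ and 3553 and 3436 in CD133- cells of SNU-216, and 3558 and 3631 against 2910 and 3096 in SNU-601, with no overlap. The log2 differences of 0.25 and 0.26 did not pass the test (limma adjusted p = 0.0659 and 0.0777). Without either array of KATO-III CD133+, which enter these tests through the shared spread alone, they passed (0.0263 in SNU-216 and 0.0347 in SNU-601). The adjusted p of the interaction was 4.3e-05.

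ITGA6, the laminin-binding chain shared by the partners ITGB1 and ITGB4, was higher in the CD133+ cells of KATO-III. It read 396 and 296 in CD133+ and 178 and 110 in CD133- cells, without overlap but with a wide gap between the arrays of a population. The log2 difference was 1.29 (standard error 0.227, limma adjusted p = 0.00192), and without each array in turn it lay between 0.94 and 1.63 and was called each time. In SNU-601 it read 291 and 277 against 218 and 264, and the log2 difference of 0.24 did not pass (95% interval -0.27 to 0.76). In SNU-216 all 4 arrays lay under the floor, between 9.64 and 21.5, and no difference between the fractions is given. The interaction had an adjusted p of 0.0207 and was lost without KATO-III CD133+ replicate 1 (0.0867) or KATO-III CD133- replicate 2 (0.0506).

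ITGB4, the hemidesmosome chain that pairs with the ITGA6 chain alone, was lower in CD133+ cells in all 3 lines. Its CD133+ and CD133- arrays read 812 and 736 against 1073 and 1004 in KATO-III, 1882 and 1924 against 2429 and 2312 in SNU-216, and 1668 and 1645 against 2419 and 2608 in SNU-601. In each line both CD133+ arrays lay under both CD133- arrays. The log2 difference was -0.42 in KATO-III (adjusted p = 0.000702), -0.32 in SNU-216 (0.00529) and -0.60 in SNU-601 (0.000654), by limma. The test did not show that these differ between the lines (adjusted p of the interaction 0.0686), although it did so without KATO-III CD133+ replicate 2 (0.0415). Over the 3 lines, with line as a block, the log2 difference was -0.45 (standard error 0.0639, limma adjusted p = 0.00803), and it stayed between -0.47 and -0.41 and called without each of the 12 arrays in turn. The call was lost with the population as a random block (adjusted p = 0.149, with the log2 difference still -0.45), under which PROM1 was still called. Averaging each population's 2 arrays before the fit gave 0.796 for ITGB4 and for PROM1 alike, so that fit is too small to test either.

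The other parts of the hemidesmosome were read beside ITGB4. COL17A1, a transmembrane collagen of this junction, was lower in the CD133+ cells of KATO-III, at 488 and 568 against 3035 and 3001, a log2 difference of -2.52 (limma adjusted p = 2.29e-07). In SNU-216 it lay under the floor in CD133+ cells and at 50.4 and 54.0 in CD133- cells, at least 1.6-fold lower (limma adjusted p = 0.000362), and in SNU-601 it read 6609 and 6118 against 6799 and 7214 and was not called (log2 difference -0.14). PLEC1, which encodes plectin, the linker to keratin filaments, was lower in KATO-III and SNU-216 (log2 differences of -0.75 and -0.81) and not called in SNU-601. Its highest intensity was 173, and its difference in KATO-III, like that of COL17A1 in SNU-216, is lost with a floor 3 times higher, under which all 4 arrays lie. CD151, a tetraspanin bound to laminin receptors, was not called in any line (log2 differences of -0.08, -0.08 and 0.08), nor was DST, which encodes the plakin BP230 and lay near or under the floor. Over the lines limma called 0 of these 4 genes, and 2 had an unadjusted p under 0.05, COL17A1 (adjusted p = 0.0619) and PLEC1 (0.059). In SNU-601 it called 0, and 0 had an unadjusted p under 0.05. Of all genes 4.73% were called over the lines and 16.4% in SNU-601.

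LAMB3, which encodes a chain of the laminin that this receptor binds, was lower in the CD133+ cells of all 3 lines. Its CD133+ and CD133- arrays read 164 and 194 against 634 and 660 in KATO-III, 220 and 228 against 606 and 571 in SNU-216, and 2055 and 2076 against 2725 and 2700 in SNU-601. The log2 differences were -1.86, -1.39 and -0.39, all called by limma, and -1.21 over the lines (adjusted p = 0.0116). A random block for the population ended this call over the lines, and the call in SNU-601 was lost without replicate 1 of its CD133+ or of its CD133- cells (adjusted p of up to 0.0546). LAMA3, for another chain of this laminin, was lower in KATO-III (-0.998) and SNU-601 (-0.27) and not called in SNU-216 (-0.08).

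**Figure D2:**
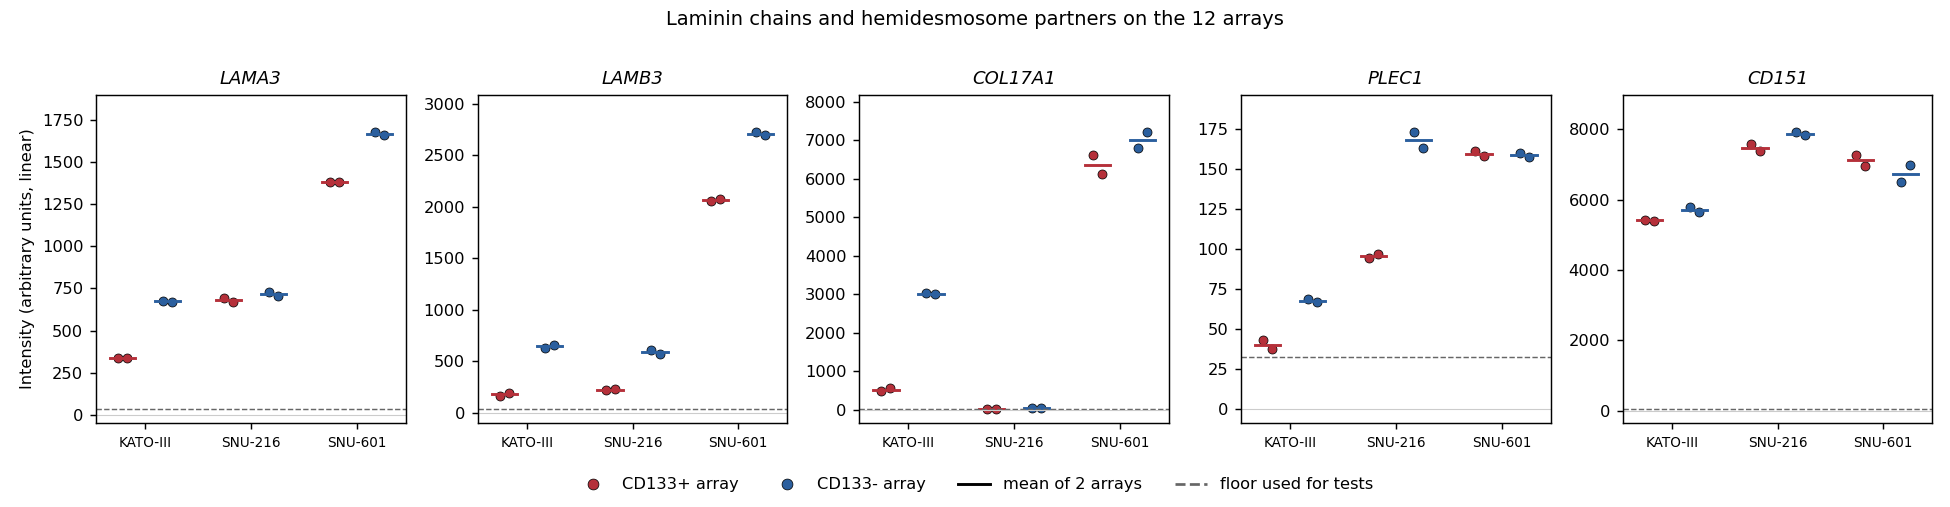
Intensity (linear scale, y axis) of the laminin chain genes LAMA3 and LAMB3 and of the hemidesmosome genes COL17A1, PLEC1 and CD151 on the 12 arrays, by line and fraction; points are arrays, bars the mean of 2 arrays, and the dashed line is the floor of 32.7. The CD133+ arrays of LAMB3 lie under the CD133- arrays in each line.

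ITGAV, the common alpha chain of the vitronectin and TGF-beta binding integrins, was higher in CD133+ cells of 2 lines. Its CD133+ and CD133- arrays read 1778 and 1788 against 1100 and 1298 in KATO-III, and 4160 and 4243 against 2568 and 2880 in SNU-216. In both lines the fractions are well apart, by 1.49-fold and 1.54-fold, with log2 differences of 0.58 and 0.63 (limma adjusted p = 0.000429 and 0.000467). In SNU-601 it read 2158 and 2231 against 2069 and 2093, and the log2 difference of 0.08 did not pass (95% interval -0.10 to 0.26). The lines differed (adjusted p of the interaction 0.00574). Over the lines the log2 difference was 0.43 (limma adjusted p = 0.0312). This call was lost without any 1 of the 8 arrays of KATO-III and SNU-216, with adjusted p values between 0.0582 and 0.081. It was lost too when the population was a random block (0.232) and when no dim genes were left out. ITGAV and ITGB4 were the 2 of 9 members called over the lines, beside 4.73% of all genes, 2.62% higher and 2.11% lower. The median log2 difference over the lines was 0.04 for the 9 members and -0.01 for all genes.

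Of the beta chains that pair with the ITGAV chain, ITGB5 went the other way in the lines in which ITGAV rose. Its CD133+ and CD133- arrays read 2504 and 2564 against 3208 and 3371 in KATO-III, and 3603 and 3754 against 4212 and 4224 in SNU-216. The differences are small beside those of the alpha chains and larger than the spread between arrays, with log2 values of -0.38 (standard error 0.0397, limma adjusted p = 0.000101) and -0.20 (limma adjusted p = 0.00556). In SNU-601 the order was turned, at 5178 and 5147 against 4779 and 4797, and the log2 difference of 0.11 did not pass (limma adjusted p = 0.105). The adjusted p of the interaction was 0.000469. ITGB8, a TGF-beta activating partner of the ITGAV chain, read 79.1 and 72.5 against 65.9 and 68.4 in KATO-III and 129 and 129 against 115 and 116 in SNU-216. It was not called in either (log2 differences of 0.17 and 0.16, 95% intervals of -0.08 to 0.43 and -0.09 to 0.41), and in SNU-601 all 4 arrays were under the floor. The difference of ITGB8 in SNU-216 was called in 1 of 8 settings other than leaving out an array (limma adjusted p = 0.0132). ITGB6, the epithelial partner of ITGAV in wound repair, was under the floor on all 12 arrays, at between -33.3 and 14.2, so no difference is given.

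ITGB1, the beta chain shared by most of these receptors, differed little between the fractions. It read 4198 and 4354 against 4355 and 4476 in KATO-III, 8057 and 8098 against 7800 and 7488 in SNU-216, and 4773 and 4770 against 4481 and 4507 in SNU-601. The log2 differences were -0.05 (95% interval -0.13 to 0.04), 0.08 (-0.01 to 0.17) and 0.09 (0.00 to 0.17), with limma adjusted p values of 0.398, 0.168 and 0.175. Its alpha partners ITGA2, ITGA3 and ITGA6 thus changed in KATO-III on arrays on which ITGB1 did not pass the test. ITGA5, the fibronectin-binding chain, was above the floor on 2 arrays, both of SNU-601, with 29.1 and 42.9 in CD133+ and 17.0 and 38.0 in CD133- cells. The 8 arrays of KATO-III and SNU-216 lay between -14.3 and 8.18, and limma called no difference between the fractions.

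**Figure D3:**
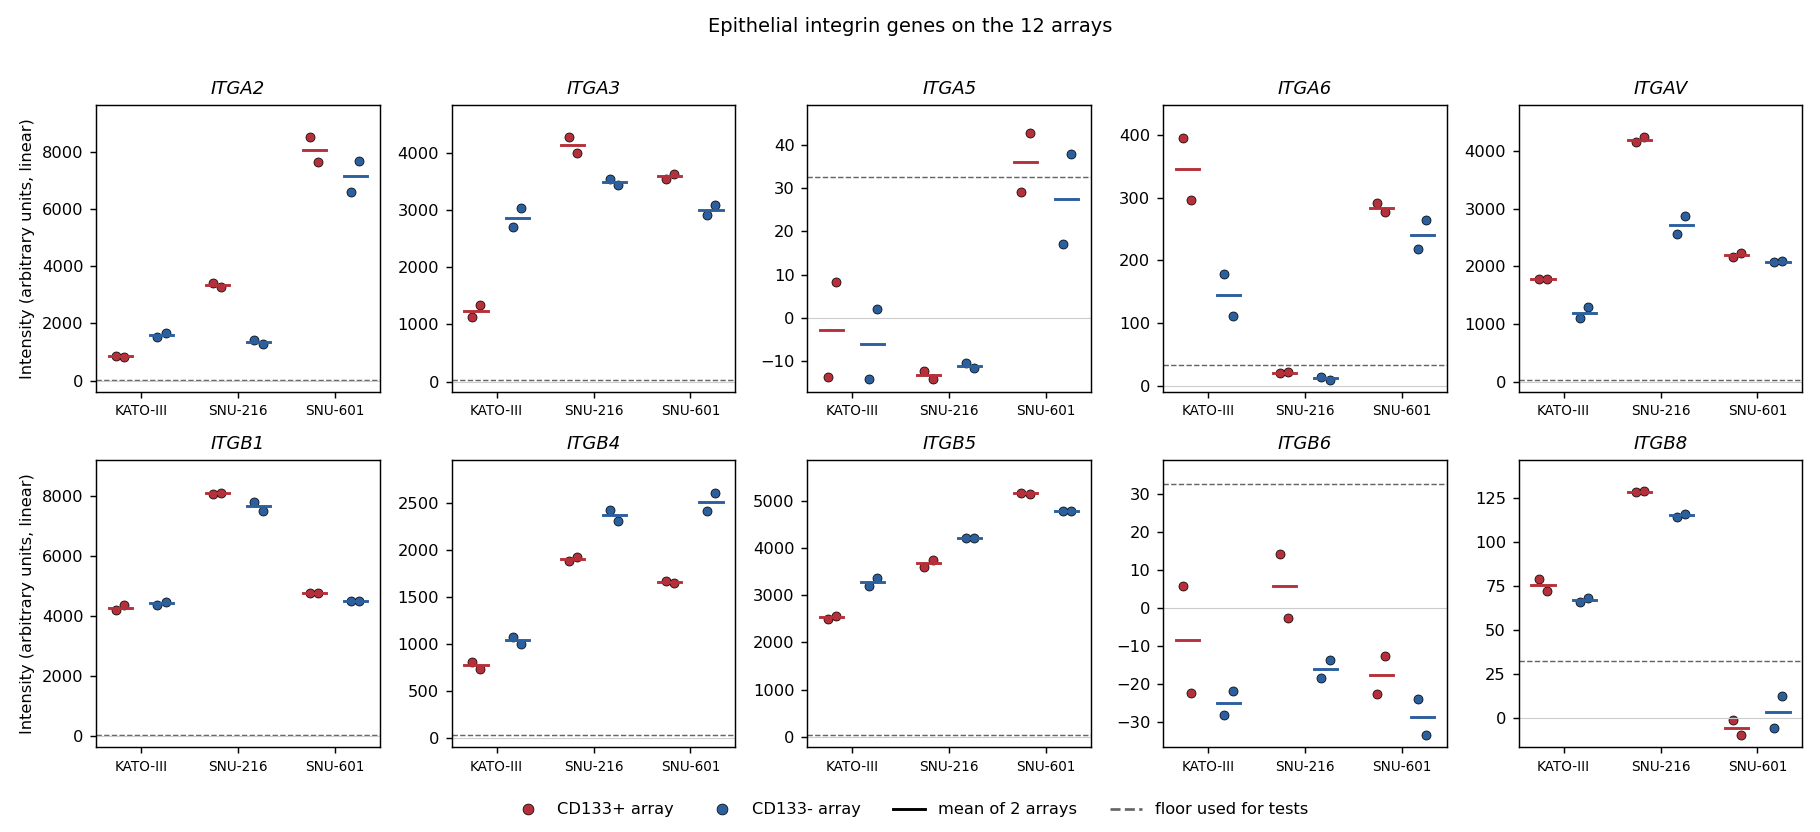
Intensity (linear scale, y axis) of the 10 integrin genes on the 12 arrays, by line (x axis) and fraction (colour); points are arrays, bars the mean of 2 arrays, and the dashed line is the floor of 32.7. ITGB6 stays under the floor throughout, ITGA6 does so in SNU-216 and ITGB8 in SNU-601.

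The second comparison was of the lines, each taken as the mean of its fractions. KATO-III had lower levels of most of the 9 tested members than the other lines. Against SNU-216, 8 of the 9 members were called, 7 lower and ITGA6 higher in KATO-III, beside 62% of all genes (30.3% higher and 31.7% lower). Against SNU-601, 7 of the 9 were called, 6 lower and ITGB8 higher, beside 58.6% of all genes (28.7% higher and 29.9% lower). SNU-216 had 4 members higher and 3 lower than SNU-601, beside 56.5% of all genes (29.4% higher and 27.1% lower). The median log2 difference of the members was -0.85 and -0.55 for KATO-III against SNU-216 and SNU-601, where that of all genes was -0.03 and -0.02, and 0.06 for SNU-216 against SNU-601, where that of all genes was 0.01.

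ITGA2 had the widest range among members measured on all 12 arrays, 10.4 times from the lowest to the highest array. Both SNU-601 populations lay above all others, and these did not differ from each other (log2 difference 0.18, limma adjusted p = 0.241). Among the 15 pairs of populations, between 16.4% and 60% of all genes were called. Each later step in the order of ITGA2, to SNU-216 CD133+, KATO-III CD133-, SNU-216 CD133- and KATO-III CD133+, passed the test. The step from KATO-III CD133- to SNU-216 CD133- lay near the threshold (log2 difference 0.245, limma adjusted p = 0.0452). Pairs of populations were not refitted under other settings. SNU-601 exceeded KATO-III 6.53-fold and SNU-216 3.57-fold in ITGA2 (limma adjusted p = 9.4e-10 and 7.04e-09). The CD133+ cells of SNU-216 thus lay above both KATO-III fractions, and the CD133- cells of SNU-216 between them.

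ITGA3 set KATO-III CD133+ cells apart from the other 5 populations. These had log2 means between 11.49 and 12.02, in the order SNU-216 CD133+, SNU-601 CD133+, SNU-216 CD133-, SNU-601 CD133- and KATO-III CD133-, and no neighbours among them differed by limma. Of their more distant pairs 4 differed, KATO-III CD133- from both SNU-216 populations and from SNU-601 CD133+ and, by 0.46, SNU-216 CD133+ from SNU-601 CD133-. The step from KATO-III CD133- to CD133+ was 1.22 on the log2 scale. ITGA6 was highest in KATO-III CD133+ and both SNU-601 populations, which did not differ in neighbouring pairs, followed by KATO-III CD133- cells. Against the floor in SNU-216, ITGA6 was at least 6.71-fold higher in KATO-III and at least 7.98-fold higher in SNU-601 (limma adjusted p = 3.22e-07 and 1.67e-07). On those 4 SNU-216 arrays the row of ITGB4, whose chain pairs with the ITGA6 chain, was well above the floor.

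ITGB1 was higher in SNU-216, 1.81-fold over KATO-III and 1.70-fold over SNU-601 (limma adjusted p = 3.8e-09 and 8.42e-09). Apart from this step, no neighbours in its order of populations differed. ITGAV was highest in SNU-216 as well, and in its order, SNU-216 CD133+, SNU-216 CD133-, SNU-601 CD133+, SNU-601 CD133-, KATO-III CD133+ and KATO-III CD133-, all steps but that between the SNU-601 fractions passed. SNU-216 exceeded KATO-III 2.32-fold and SNU-601 1.58-fold in ITGAV. ITGB5 was highest in SNU-601, 1.72-fold over KATO-III and 1.26-fold over SNU-216, and its steps all passed except that between the SNU-601 fractions.

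ITGB4 was lowest in KATO-III, 2.37-fold under SNU-216 and 2.28-fold under SNU-601 (limma adjusted p = 9.2e-09 and 2.16e-08). The means of SNU-216 and SNU-601 did not differ by the test (log2 difference 0.06, 95% interval -0.04 to 0.16), nor did the CD133- cells of these lines, which were the highest of the 6 populations. ITGB8 was highest in SNU-216, 1.71-fold over KATO-III, and against the floor in SNU-601 it was at least 3.73-fold higher in SNU-216 and at least 2.18-fold higher in KATO-III. Its intensities are low, and the difference between KATO-III and SNU-601 is lost with a floor 3 times higher, under which the arrays of both lines lie. ITGB8 exceeded the floor only in SNU-216 and KATO-III, so it too entered the test through the lines where it is high. ITGA5 was called in 0 of the 15 pairs of populations, and this depends on the floor. With the floor halved or with an offset of 100, ITGA5 was called lower in KATO-III and in SNU-216 than in SNU-601. The log2 differences went down to -0.88, and without SNU-601 CD133+ replicate 1 they were -0.25. Only arrays of SNU-601 exceeded the floor, whole or halved. ITGA5 thus entered the test through the line where it is high, and these calls are given as a description.

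**Figure D4:**
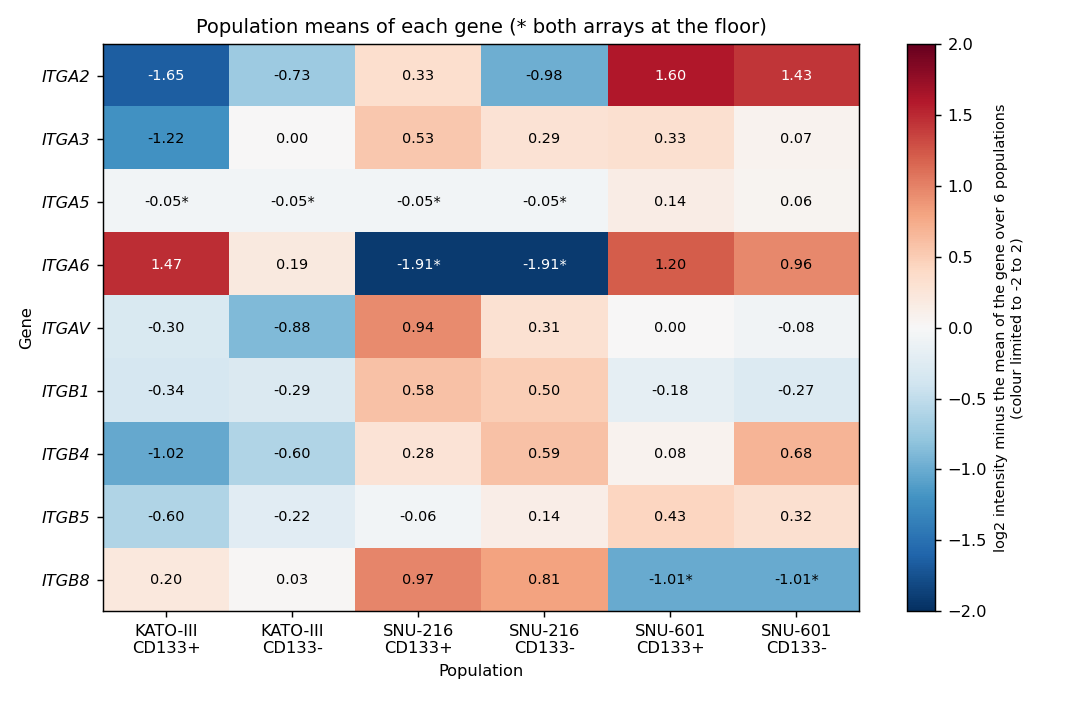
Mean log2 intensity of each of the 9 tested integrin genes (rows) in the 6 populations (columns), minus the mean of the gene over the populations, so that rows can be compared in shape and not in level; the number in each cell is this difference. KATO-III CD133+ cells have the lowest ITGA2 (-1.65), ITGA3 (-1.22), ITGB4 (-1.02) and ITGB5 (-0.60), and cells with an asterisk lie at the floor on both arrays.

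Among 16 other integrin subunits, 10 exceeded the floor often enough to be tested. In KATO-III ITGAE was higher in CD133+ cells (log2 difference 1.42), at 3875 and 3836 against 1721 and 1208, and ITGB2 lower (-0.49). ITGAE encodes the chain that binds E-cadherin in pair with the ITGB7 chain. In SNU-601 ITGA10 (1.58) and ITGB2 (0.87) were higher and ITGB7 (-1.05) lower, and ITGB7 was called in 4 of the 12 fits that left out an array (adjusted p up to 0.13 in the others). Limma called 0 of the 10 in SNU-216, where 0 had an unadjusted p under 0.05, and 0 over the lines, where 2 had one. Their median log2 difference was -0.02, -0.11 and -0.18 in KATO-III, SNU-216 and SNU-601. Of all genes 39.3%, 28.6% and 16.4% were called in these lines, and 4.73% over the lines.

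Of 30 genes for adaptors and regulators of integrins, 28 were tested. In KATO-III 7 were higher, among them RSU1 (0.86), LIMS1 (0.63) and ITGB1BP1 (0.60), and 8 lower, among them TLN2 (-0.42), TNS3 (-0.39) and ILK (-0.38). The proteins of LIMS1 and RSU1 bind to each other in the complex with integrin-linked kinase, the product of ILK, and here they went the other way from it. In SNU-216 NEDD9 (0.64) and FERMT2 (0.40) were higher and 9 lower, among them TLN1 (-0.50), ACTN4 (-0.39) and FERMT1 (-0.39). In SNU-601 LIMS1 (0.42), ACTN1 (0.29) and ZYX (0.27) were higher and TLN2 (-0.85), GIT1 (-0.50) and FERMT1 (-0.21) lower. Of these, FERMT1 was called in 4 of the 12 fits that left out an array, those without an array of SNU-216, and in 3 of 9 other settings. Some other calls were lost without a single array of the line tested, that of RSU1 without KATO-III CD133+ replicate 1 or either CD133- array (adjusted p of up to 0.167) and that of FERMT2 without SNU-216 CD133+ replicate 2 (0.0697). In SNU-601 ZYX was lost without CD133+ replicate 1 or either CD133- array (up to 0.131), and ACTN1 (up to 0.0927) and LIMS1 (up to 0.0654) without CD133+ replicate 2 or CD133- replicate 1. Over the lines TNS3 was called, at -0.25, and it was not called without any 1 of the arrays of KATO-III or SNU-216 (adjusted p of up to 0.0699). In settings other than leaving out an array, TNS3 was called over the lines in 8 of 11. The median log2 difference of the 28 was 0.01 in KATO-III, -0.18 in SNU-216 and -0.05 in SNU-601. Of all genes 18.7% were called higher and 20.6% lower in KATO-III, 14.6% and 14% in SNU-216 and 8.59% and 7.78% in SNU-601. Over the lines these shares were 2.62% and 2.11%.

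Of 15 laminin chains and other ligands 11 were tested. In KATO-III 5 were lower, led by LAMB3, LAMA3 and TNC (-0.74), and LAMB1 (0.76) and COL1A1 were higher. COL1A1 was at least 1.8-fold higher, against CD133- arrays under the floor, and was not called with a floor 3 times higher, with an offset of 100 or without KATO-III CD133+ replicate 2 (0.0708). In SNU-216 LAMC1 (0.27) was higher and LAMB3 lower, and LAMC1 was called in 9 of the 12 fits that left out an array, the exceptions being SNU-216 CD133+ replicates 1 and 2 and CD133- replicate 1 (adjusted p of up to 0.18). In SNU-601 VTN, LAMB3 and LAMA3 were lower. VTN, which encodes vitronectin, the ligand of ITGAV with ITGB5, read 153 and 165 in the CD133- cells of SNU-601 and was at least 4.86-fold lower in the CD133+ cells, under the floor like all arrays of the other lines. Only these 2 CD133- arrays exceeded the floor, so VTN entered the test through the group where it is high. Without either of them it was not tested, and its call is given as a description. The median log2 difference of the 11 was -0.39 in KATO-III, -0.01 in SNU-216 and 0.07 in SNU-601. Of all genes 18.7% were called higher and 20.6% lower in KATO-III, 14.6% and 14% in SNU-216 and 8.59% and 7.78% in SNU-601.

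For each member, the gene with the most similar course was sought among 10869 genes whose population means span at least 1 on the log2 scale, by Pearson's r over the 6 population means. The points share lines and arrays, and with 6 points and so many genes high values arise for any course, so they are given as a description. It was SPOCD1 for ITGA2 (r = 0.994), ARVP6125 for ITGA3 (0.997), C3ORF31 for ITGA6 (0.997), ERCC8 for ITGAV (0.994), CLIP4 for ITGB1 (0.999), KIAA1462 for ITGB4 (0.993), LOC100130093 for ITGB5 (0.997) and NUP93 for ITGB8 (0.999). For ITGA5 it was JSRP1 (1), where the course rests on SNU-601 alone. Among the members themselves r was highest between ITGA2 and ITGB5 (0.846) and lowest between ITGA6 and ITGB1 (-0.95), where both rows are set mainly by SNU-216.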

How the data were processed

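RNA of 6 sorted populations was measured on 12 Illumina HT-12 v3 arrays. The authors deposited intensities, quantile-normalized, with 1 row for each gene symbol. The labels name BeadStudio. A background had been subtracted, since 32.1% of values are at or below 0, and neither its estimate nor the rule for joining probes is given in the sources used here. Rows were used under their symbols, PLEC1 for PLEC.

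From these, log2 intensities were computed with a floor of 32.7, which is the 1% quantile of all intensities with its sign removed. Intensities under the floor were not ranked. Tests covered the 20147 genes that exceeded it on 2 or more arrays and used limma 3.58.1 with a mean-variance trend (R 4.3.3). Lines, fractions within lines, pairs of populations and the interaction used a mean for each of the 6 populations (6 residual degrees of freedom), and the difference over the lines used line as a block (8). Standard errors and 95% intervals are limma's. Other steps used Python 3.11.15 with numpy 2.4.6, pandas 2.3.3 and matplotlib 3.10.9. The fits were tested on simulated data. The number of arrays limits the precision.

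All 10 members are named, the 3 genes a direction with the largest called difference in the other lists, all hemidesmosome partners, PROM1 and, as cell markers that moved, LUM and CD14. In KATO-III, SNU-216 and SNU-601 the 2 arrays of a population were the replicates. One gene of the ligand list is not reported here. The members and lists were chosen with earlier results of these data known. Alternatives covered the floor, the normalization, the filter, the trend, the replicate number, averaging and leaving out arrays.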

Additional observations from a re-analysis of the deposited data

Results flagged for a closer look

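The difference between CD133+ and CD133- cells differed between the 3 lines for 5 of the 9 tested integrin genes, by limma's F-test of the interaction of line and fraction. The adjusted p was 1.37e-05 for ITGA2, which was lower in the CD133+ cells of KATO-III and higher in those of SNU-216. It was 4.3e-05 for ITGA3, 0.000469 for ITGB5, 0.00574 for ITGAV and 0.0207 for ITGA6. ITGA6 lay under the floor in both fractions of SNU-216, so that its difference there is set to 0 and not measured. Its interaction was lost with the floor halved and without the filter on dim genes (adjusted p up to 0.0699) and without KATO-III CD133+ replicate 1 (0.0867) or CD133- replicate 2 (0.0506).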

How the results depend on the processing

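Of 2612 values of single genes recomputed under 23 settings, 2492 kept their direction and side of the threshold, 88 lost the call, 22 gained it and 10 changed sign, all 10 in values not called. The replicate block gave as many called members as without it in all comparisons (6, 4 and 1 in KATO-III, SNU-216 and SNU-601, 2 over the lines, 5 for the interaction and 8, 7 and 7 between the lines). Differences between replicates 1 and 2 correlated between populations with r of -0.0116 to 0.0276, so arrays of the same number showed no large shared shift. Whether the numbers pair the arrays cannot be told from this, since pairing without such a shift would give low values too. Called members in SNU-601 rose from 1 to 2 with an offset of 100 and no floor, with centred arrays or with only genes above the floor on all 12 arrays, and were 1 to 2 without an array. Over the lines they fell from 2 to 1 without the filter and to 0 with averaged arrays or population as a random block, and were 1 to 2 without an array. Under all settings called members lay between 5 and 6 in KATO-III, 4 and 6 in SNU-216, 4 and 6 for the interaction, 6 and 8 for KATO-III against either line and 5 and 8 for SNU-216 against SNU-601. In SNU-216 ITGA3 was gained in 3 of 9 settings other than leaving out an array, and ITGB8 in 1 of 8. Without an array, DST ran from -0.1731 to 0.3874 in SNU-216 and from -0.04328 to 0.09685 over the lines, PLEC1 from -0.005079 to 0.02043 in SNU-601, and ITGA5 from -0.02317 to 0.2822 in SNU-601 and from -0.005791 to 0.07055 over the lines. Over the lines DST was -0.02303 with an offset of 100 and CD151 was 0.001522 with centred arrays. These are log2 differences close to 0 or of genes near the floor, and the cause was not tested.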
